A study of Mus musculus with 8 samples.

Results

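The Kirrel adhesion genes and the Slit, Robo and contactin genes of olfactory axon sorting were followed in mice with a deletion of Lhx2, a homeodomain transcription factor, in mature olfactory neurons. The set has 9 members, chosen by symbol: Kirrel, Kirrel2, Kirrel3, Robo1, Robo2, Slit1, Slit2, Cntn4 and Cntn6. Each was measured by 1 transcript cluster, the array unit that combines the probes of all exons of a gene, among 19938 genes with a cluster of their own. Olfactory mucosae, the nasal lining that holds these neurons, were taken at postnatal day 26 from 8 mice of a mixed 129 x C57BL/6J background, each hybridized to 1 GeneChip array. The 4 knockouts were OmpCre:Lhx2(fl/fl). Of the 4 control littermates, 3 (replicates 2 to 4) carried OmpCre and 1 floxed allele, Lhx2(fl/+), and control replicate 1 carried the floxed allele without Cre. Every mouse therefore had at least 1 floxed allele. The Omp locus carries the Cre and drives it in mature olfactory sensory neurons (OSNs) but not in their precursors, and recombination is stated to be incomplete.

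OSN axons that express the same odorant receptor sort together on their way to the olfactory bulb and converge onto shared glomeruli. Kirrel proteins are immunoglobulin superfamily members that bind their own kind on neighbouring membranes. Kirrel2 and Kirrel3 are known for complementary patterns among OSN axons that depend on neuronal activity. Slit proteins are secreted repellents, and Robo receptors read them on the growth cone, which separates dorsal from ventral axons. Contactins are GPI-anchored adhesion molecules, and Cntn4 (also called BIG-2) is known in OSN axons for its part in sorting.

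The values are log2 expression values as deposited, so a difference of 1 is a factor of 2 in signal. Signals of different probes are not abundances and are compared only within a gene. Lhx2 itself fell by 0.25 ± 0.06 (SE of the fit, n = 4 and 4) on this scale (limma adjusted p = 0.0383), with controls at 12.29 to 12.39 and knockouts at 11.99 to 12.17, and was called lower in 7 of 17 alternative analyses. Omp, whose locus holds the Cre, was at 13.22 to 13.78 in controls, highest in the mouse without Cre, and 12.37 to 12.88 in knockouts. The defining markers of the tissue were high in all arrays: mature OSN markers had a mean of 12.39 to 12.41 in controls and 11.80 to 11.89 in knockouts. Mouse numbers in the titles start with 5, 7 or 9. These title series, of 2, 1 and 1 mice a group, are used below for comparisons within a series, and nothing in the sources says that they mark a batch.

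In these data Kirrel rose in the knockouts, while Kirrel2, Kirrel3 and Robo2 fell. Kirrel3 had the largest change of the set, to 0.348 of the control level. Robo1, Slit1, Slit2, Cntn4 and Cntn6 did not pass the test, although Cntn4 was lower in each knockout than in any control. Of the 9 members 3 were called lower and 1 higher at an adjusted p under 0.05, against 6.29% and 2.1% of all 23410 clusters tested. In either direction 4 of 9 were called, against 8.39% of all clusters. With each array centred on its own median, 1342 clusters were called lower and 1028 higher, compared with 1473 and 492 in the deposited values, and the same 4 members were called. In 5 members the groups did not overlap, against 14.3% of all clusters. Of these 4 were lower, against 7.83%, and 1 was higher, against 6.42%. The median log2 change was -0.13 over the members and 0.05 over all clusters tested.

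**Figure D1:**
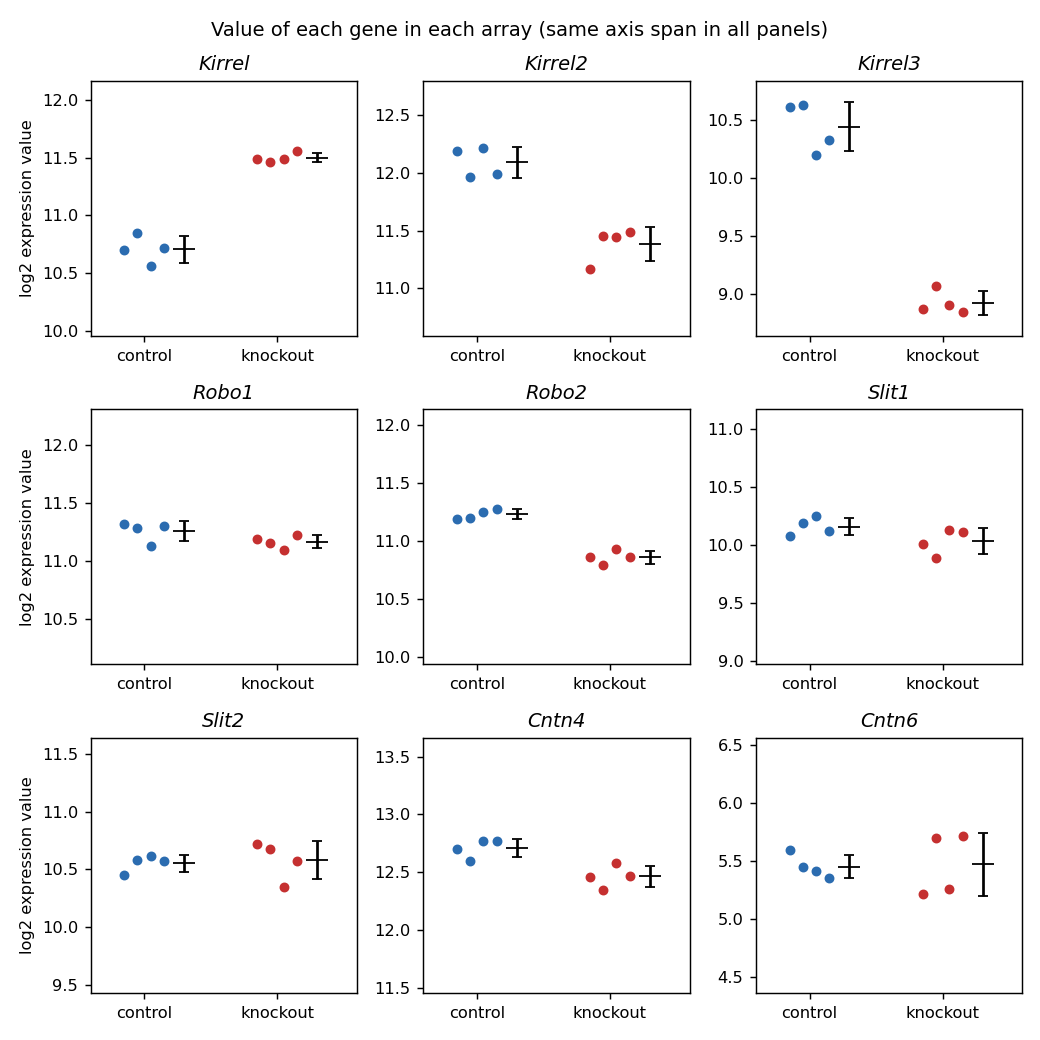
Log2 expression value (y axis) of the 9 genes in 4 littermate controls (blue) and 4 knockouts (red); each point is 1 mouse, bars are the group mean and SD, and every panel spans the same range. Kirrel is higher and Kirrel2, Kirrel3, Robo2 and Cntn4 are lower in all 4 knockouts than in all 4 controls.

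Promoter sequences are shown for the called members that have one in the RefSeq table of GRCm38.p6, because 1 of them rose and the others fell. Each is the stretch of 250 bases before a transcript start, read towards the gene. For Robo2, which has 3 annotated starts, the window shown is the one that holds a searched motif. Capitals mark CCCNNGGG, the core of the Olf1/Ebf element of odorant receptor promoters.
Kirrel (chr3:87174538-87174787, minus strand): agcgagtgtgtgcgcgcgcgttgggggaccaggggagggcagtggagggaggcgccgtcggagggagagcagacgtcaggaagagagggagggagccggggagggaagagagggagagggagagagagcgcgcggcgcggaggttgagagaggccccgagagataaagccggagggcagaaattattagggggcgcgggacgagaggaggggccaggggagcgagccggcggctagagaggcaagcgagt
Kirrel2 (chr7:30457516-30457765, minus strand): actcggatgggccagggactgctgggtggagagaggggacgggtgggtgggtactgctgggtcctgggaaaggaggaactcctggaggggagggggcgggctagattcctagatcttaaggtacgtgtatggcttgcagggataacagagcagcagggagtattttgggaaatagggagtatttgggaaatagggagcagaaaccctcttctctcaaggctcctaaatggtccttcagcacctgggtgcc
Robo2 (chr16:74411826-74412075, minus strand): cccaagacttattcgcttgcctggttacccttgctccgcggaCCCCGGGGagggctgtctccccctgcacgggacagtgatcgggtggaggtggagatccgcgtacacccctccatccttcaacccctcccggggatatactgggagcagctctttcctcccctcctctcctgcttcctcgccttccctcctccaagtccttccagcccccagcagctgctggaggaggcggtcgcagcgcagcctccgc

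Both motifs searched, the homeodomain core TAATTA and CCCNNGGG, read the same on either strand and do not overlap each other in these windows. Of 10 windows of 7 members, 1 held TAATTA and 1 held CCCNNGGG, while 4.84% and 11.8% of all 32851 windows of the same length did. The TAATTA match was in a Cntn4 window, with its first base 110 bases before the start. The CCCNNGGG match in Robo2 began 208 bases before the start. G and C made up 68.8% of the Kirrel window, 56.4% of the Kirrel2 window and 65.6% of the Robo2 window shown, against a median of 52.4%. The window of Slit2, which was not called, held 69.6%, and nothing is read from these shares. No match says only that these letters are not in the window. Kirrel3 and Slit1 are not in the table.

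Among the Kirrel genes, Kirrel3, an adhesion molecule of OSN axons, was at 10.61, 10.63, 10.20 and 10.33 in control replicates 1 to 4. In knockout replicates 1 to 4 it was at 8.87, 9.07, 8.90 and 8.84. The lowest control lay 1.13 above the highest knockout, and the larger group SD was 0.21. The change was -1.52 ± 0.11 (95% interval -1.76 to -1.29; limma adjusted p = 8.38e-06), a decrease of 65.2%. The change was similar in title series 5, 7 and 9, at -1.65, -1.31 and -1.48.

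Kirrel2, whose pattern among OSN axons is complementary to that of Kirrel3, was at 12.19, 11.96, 12.21 and 11.99 in controls. It was at 11.17, 11.45, 11.44 and 11.49 in knockouts. All knockouts were below all controls, and knockout replicate 1 was the lowest. The change was -0.70 ± 0.09 (95% interval -0.90 to -0.50; limma adjusted p = 0.000599), or 38.4% less. Within the title series it was -0.76, -0.77 and -0.51.

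Kirrel (also called Kirrel1 or Neph1), the family member best known from the slit diaphragm of the kidney, moved the other way. It was at 10.70, 10.85, 10.56 and 10.72 in controls and at 11.49, 11.46, 11.49 and 11.56 in knockouts. The knockouts lay close together (SD 0.04), all above the highest control by at least 0.60. The change was 0.79 ± 0.07 (95% interval 0.63 to 0.95; limma adjusted p = 4.08e-05), or 1.73-fold. It was 0.70, 0.93 and 0.84 within the title series, and control replicate 1, the mouse without Cre, was in the middle of its group.

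The 3 Kirrel genes changed unequally within the same arrays. In each array the log2 value of a gene was subtracted from that of its relative, which removes any scaling of the array, and knockouts were set against controls by exact permutation of the 70 possible assignments (two-sided, adjusted over 6 pairs). Kirrel3 minus Kirrel was -0.39 to -0.09 in controls and -2.71 to -2.39 in knockouts. The balance of Kirrel3 to Kirrel therefore shifted by -2.31, or 4.97 times (exact p = 0.0286, adjusted p = 0.0429). Kirrel2 minus Kirrel shifted by -1.49, or 2.81 times, and Kirrel3 minus Kirrel2 by -0.82, or 1.77 times (exact p = 0.0286 and adjusted p = 0.0429 for each). The groups did not overlap in any of these pairs, and 0.0286 is the smallest p that 4 against 4 arrays can give. The 3 Kirrel pairs share their values, so they are not independent. Kirrel rose and Kirrel2 and Kirrel3 fell without overlap, so both pairs with Kirrel had to separate. The adjusted p of every pair that passed rests partly on these 2. Kirrel3 minus Kirrel2 was less uniform over the title series (-0.89, -0.53 and -0.98) than Kirrel3 minus Kirrel (-2.35, -2.23 and -2.32).

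**Figure D2:**
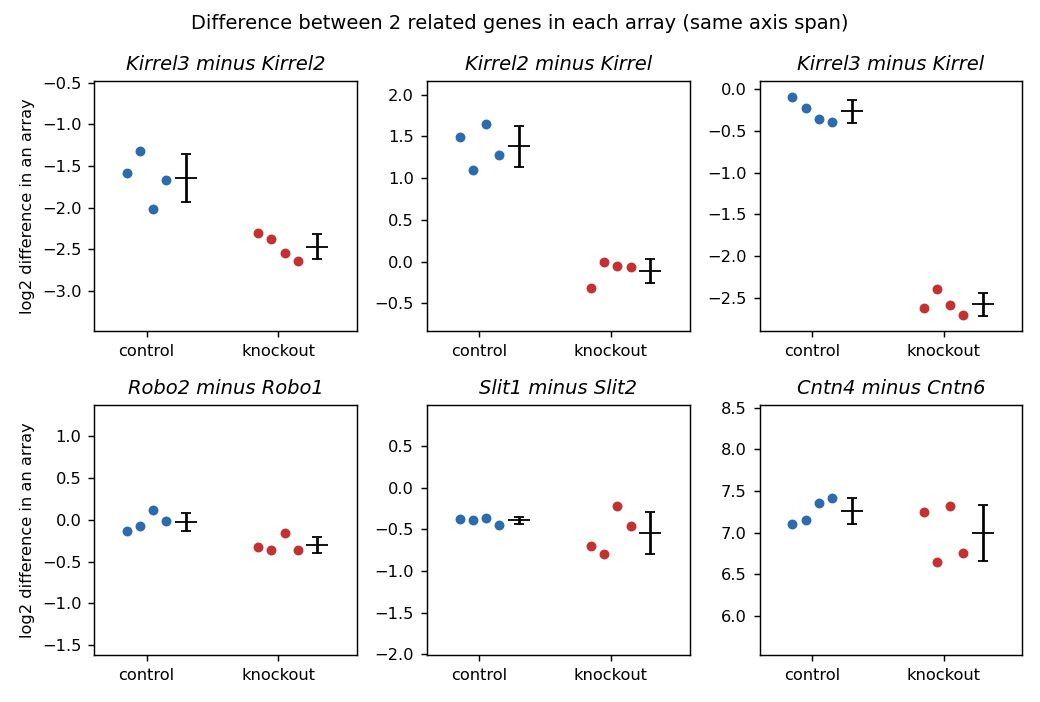
Log2 difference between 2 related genes in the same array (y axis) for each control mouse (blue) and knockout mouse (red); bars give mean and SD, and all panels span the same range. The Kirrel pairs and Robo2 minus Robo1 are lower in all knockouts, whereas the groups overlap for Slit1 minus Slit2 and Cntn4 minus Cntn6.

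Of the receptors, Robo2, a Slit receptor of dorsal OSN axons, was at 11.19, 11.20, 11.25 and 11.28 in controls. It was at 10.86, 10.79, 10.93 and 10.86 in knockouts. The groups were tight and did not overlap. The change was -0.37 ± 0.06 (95% interval -0.50 to -0.24; limma adjusted p = 0.00171), a decrease of 22.7%, and it was -0.37, -0.32 and -0.42 within the title series.

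Robo1, the other Slit receptor measured and a gene also known from olfactory ensheathing glia, was at 11.32, 11.28, 11.13 and 11.30 in controls and 11.19, 11.15, 11.09 and 11.22 in knockouts. The groups overlapped. The change of -0.09 ± 0.06 did not pass (95% interval -0.24 to 0.05; limma adjusted p = 0.505). Robo2 minus Robo1 was -0.13 to 0.12 in controls and -0.36 to -0.16 in knockouts, a shift of -0.28 (exact permutation p = 0.0286, adjusted p = 0.0429), and was -0.24, -0.28 and -0.34 within the title series. The groups thus did not overlap in this difference, but the highest knockout (-0.16) lay close below the lowest control (-0.13).

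Neither ligand passed the test. Slit1 was at 10.08, 10.19, 10.25 and 10.12 in controls and 10.01, 9.89, 10.13 and 10.11 in knockouts, with overlap between the groups. Its change was -0.13 ± 0.07 (95% interval -0.29 to 0.04; limma adjusted p = 0.417). Slit2, a ligand also made by cells outside the neuronal layer, was at 10.45, 10.58, 10.62 and 10.57 in controls and 10.72, 10.68, 10.35 and 10.57 in knockouts. Its change was 0.02 ± 0.09 (95% interval -0.17 to 0.22; limma adjusted p = 0.925), and it differed in sign between title series 5 (0.18) and title series 7 (-0.27). Slit1 minus Slit2 shifted by -0.15, which did not pass, with a spread of 0.04 (SD) in controls and 0.26 in knockouts (exact permutation p = 0.314, adjusted p = 0.314). Without knockout replicate 3, in which Slit2 was lowest, that shift was -0.26 (exact permutation adjusted p = 0.0429).

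Cntn4 was at 12.70, 12.60, 12.77 and 12.77 in controls and 12.46, 12.35, 12.58 and 12.47 in knockouts. The groups were separated by only 0.02. The change of -0.25 ± 0.07 (95% interval -0.40 to -0.09), or 15.6% less, missed the threshold (limma adjusted p = 0.0615). The call was made when title series entered the fit as a block (limma adjusted p = 0.0232), with array weights (0.0239), with an intensity trend in the variance (0.0175), and without control replicate 2 (0.0486) or knockout replicate 3 (0.0426). Within the title series it was -0.25, -0.19 and -0.30.

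Cntn6, a contactin also called NB-3, had the dimmest cluster of the set. It was at 5.59, 5.45, 5.41 and 5.35 in controls and 5.21, 5.70, 5.26 and 5.71 in knockouts. These values lie under 5.78, the 90th percentile of the means of 170 vomeronasal receptor clusters, genes with little expression in this tissue, while the other 8 members lie above it. The change was 0.02 ± 0.12 (95% interval -0.26 to 0.30; limma adjusted p = 0.961). At such a signal the array may not show a change. For the same reason the difference Cntn4 minus Cntn6 is plotted but not read as a comparison of both contactins.

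In bulk mucosa, fewer OSNs and less RNA per OSN cannot be told apart. Mature OSN markers fell along with these genes: 13 of 15 were called lower, none higher (0 at an unadjusted p under 0.05 in limma, 0 in the methods' t-test), and their mean shifted by -0.56. Each member was therefore also expressed relative to the mean of the 15 markers in the same array, with an exact two-sided permutation test adjusted over the 9 members. On this scale Kirrel3 was still lower, with -2.19 to -1.77 in controls and -3.01 to -2.77 in knockouts. Its shift was -0.97, to 0.511 of the control value (exact p = 0.0286, adjusted p = 0.0321). The adjusted p is under 0.05 only because most members reached 0.0286, the smallest exact p, several through the decrease of the markers. The Kirrel2 groups overlapped, and its shift of -0.14 did not pass (exact p = 0.286, adjusted p = 0.286).

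Kirrel relative to the markers was -1.83 to -1.55 in controls and -0.39 to -0.29 in knockouts, a shift of 1.34 or 2.54-fold (exact p = 0.0286, adjusted p = 0.0321). Robo2, Cntn4, Slit1, Robo1 and Slit2 were also higher on this scale, with no overlap between groups (exact p = 0.0286 and adjusted p = 0.0321 for each). The shifts were 0.18 for Robo2, 0.31 for Cntn4, 0.43 for Slit1, 0.46 for Robo1 and 0.58 for Slit2. For Cntn6, at the signal of genes with little expression, the value of 0.57 restates the decrease of the markers, and nothing is read from it. A gene with no change in the deposited values shifts by 0.56 on this scale. Slit1, Slit2, Robo1 and Cntn4 did not pass in the deposited values, so their higher values here are not read as increases. In limma with arrays centred on these markers, 21738 of 23410 clusters were called higher. The direction for Robo2 thus depended on the reference: lower in the deposited values, higher relative to these 15 markers, and by construction still lower against any reference that fell by less than Robo2 itself. The Robo2 shift no longer passed against the median of the list (0.23, exact permutation adjusted p = 0.0643) or without Cnga4, the most changed marker (0.08, exact permutation adjusted p = 0.0571). Without Cnga4 the Kirrel2 shift was -0.25 and passed (exact permutation adjusted p = 0.0321).

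**Figure D3:**
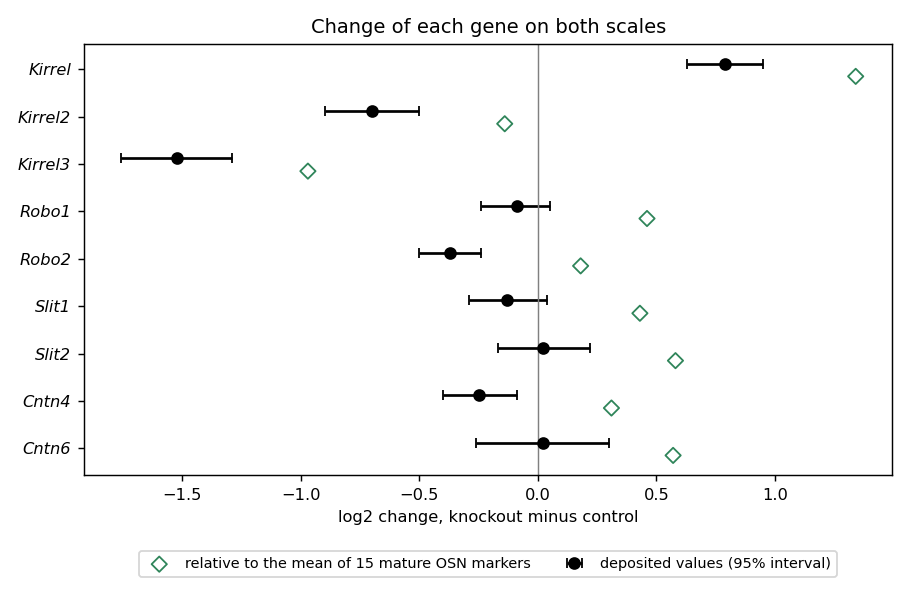
Log2 change, knockout minus control (x axis), of the 9 genes in the deposited values (black, with the 95% interval of the fit) and relative to the mean of 15 mature OSN markers (green diamonds). Kirrel3 is below 0 and Kirrel above 0 on both scales, Kirrel2 is near 0 relative to the markers, and Robo1, Robo2, Slit1 and Cntn4 change sides.

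Markers of other cells in the mucosa shifted less in their mean than mature OSN markers. The vomeronasal marker Calr4 rose by about as much (0.55) as the mature OSN markers fell (-0.56). Immature OSN markers had a mean of 11.06 to 11.10 in controls and 11.02 to 11.19 in knockouts. Of these 12 markers 1 was called lower and 1 higher, against 6.29% and 2.1% of all clusters. No marker was called among 8 of ensheathing and Schwann cells, 7 of sustentacular cells, 7 of basal and progenitor cells, 6 of stroma and 4 of endothelium, and 2 of these 32 had an unadjusted p under 0.05 in limma, both higher, with 0 called in the methods' t-test. The mean shifts of these lists were -0.04 to 0.09. Calr4, the vomeronasal neuron marker analysed here, was at 7.16 to 7.29 in controls and 7.45 to 8.25 in knockouts. Its change of 0.55 ± 0.14 was called higher in limma (adjusted p = 0.0454) but not in the methods' t-test. Of 170 vomeronasal receptor clusters 5 were called higher, a share near the 2.1% of all clusters, and none lower (31 and 0 at an unadjusted p under 0.05 in limma, 1 and 0 in the methods' t-test). The share of all clusters at the unadjusted threshold is not given here, so nothing is read from the unadjusted counts. Their mean was 4.45 to 4.65 in controls and 4.61 to 4.70 in knockouts. The part of vomeronasal tissue in the Kirrel increase was not tested. Of the zone markers, Nqo1 of dorsal OSNs fell by 1.15 ± 0.11 (limma adjusted p = 6.59e-05), whereas the changes of Acsm4 (-0.01), also of dorsal OSNs, and Ncam2 (-0.15), of ventral OSNs, did not pass, and the part of a shift between zones in the Robo2 decrease was not tested.

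The pathways around the members were read from 4 lists of partners and relatives. Of 41 genes measured, 6 fell and 1 rose, or 17.1%, against 8.39% of all clusters (6.29% lower and 2.1% higher), and their median change was -0.04. The counts of 1 or 2 genes in a list, given below, are too small to read as a result about that list. With arrays centred on the mature OSN markers the 6 changes were 0.04 to 0.34, and none was called lower. In the Slit-Robo pathway 2 of 13 fell, and both were srGAPs, GTPase-activating proteins that bind the Robo tail. Srgap2 was at 10.19, 10.32, 10.30 and 10.25 in controls and 9.93, 9.77, 9.80 and 9.85 in knockouts, a change of -0.43 ± 0.06 (limma adjusted p = 0.00108). Srgap1 was at 11.47, 11.54, 11.56 and 11.55 in controls and 11.17, 11.13, 11.25 and 11.25 in knockouts, a change of -0.33 ± 0.06 (limma adjusted p = 0.00383). Their relative Srgap3 had a change of 0.11 ± 0.09 and did not pass. Neither did Slit3 (-0.11 ± 0.13), the third Slit, nor Robo3 (-0.05 ± 0.14) and Robo4 (-0.08 ± 0.07), the remaining Robo receptors.

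Among contactins and their partners 2 of 14 fell and 1 rose. Cntn3, a contactin related to Cntn4 and Cntn6, was at 6.36, 6.34, 6.24 and 6.61 in controls and 7.21, 6.94, 6.91 and 7.12 in knockouts. It rose by 0.66 ± 0.10, or 1.58-fold (limma adjusted p = 0.00145), with 0.72, 0.67 and 0.51 within the title series. The Cntn3 signal was low: its controls lay above 5.78, the percentile used for Cntn6, but under 7.07, the highest mean of a vomeronasal receptor cluster. Cntnap1, a contactin-associated protein, had a change of 0.41 ± 0.12 that missed the threshold (limma adjusted p = 0.0649) and was called higher with title series as a block, with array weights, with either quantile normalization or centring on the array median, and without control replicate 3. Nrcam, an axonal adhesion molecule, had a change of 0.19 ± 0.07 (limma adjusted p = 0.141) and was called higher with array weights or centring on the array median. On the lower side, App had a change of -0.17 ± 0.05 that missed the threshold (limma adjusted p = 0.107), without overlap between the groups. App was called lower with array weights, with an intensity trend and in the methods' t-test. Cntn1, Cntn2 and Cntn5 had changes of 0.04 to 0.06 that did not pass. Cntnap4, a contactin-associated protein, fell by 0.51 ± 0.13 (limma adjusted p = 0.0349), and L1cam, an axonal adhesion molecule, by 0.25 ± 0.06 (limma adjusted p = 0.0186). Cntnap4 was highest in control replicate 1, the mouse without Cre, at 7.86 against 7.23 to 7.43 in the other controls. Without that mouse its change was -0.37 (limma adjusted p = 0.0188). The Cntnap4 call was lost without control replicate 4 or any knockout replicate (adjusted p = 0.06 to 0.0961), with title series as a block (0.0529), after centring on the array median (0.0579), over all clusters of the array (0.0875) and in the methods' t-test (0.128), and the L1cam call without control replicate 1 or 2 or knockout replicate 2 or 3 (0.056 to 0.0569).

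Of 8 other axon adhesion genes 2 fell: Dscam by 0.26 ± 0.06 (limma adjusted p = 0.0175) and Ncam1, the neural cell adhesion molecule, by 0.22 ± 0.05 (limma adjusted p = 0.0303). Without control replicate 1 or 2 or knockout replicate 1 or 2 the Dscam call was lost (adjusted p = 0.0518 to 0.0709). The Ncam1 call was lost without control replicate 1, 2 or 3 or knockout replicate 1, 2 or 4 (adjusted p = 0.0713 to 0.0969), after centring on the array median (-0.16, adjusted p = 0.117) and over all clusters of the array (0.0575). Dscaml1 had a change of -0.24 ± 0.08 that missed the threshold (limma adjusted p = 0.125), without overlap between the groups. Dscaml1 was called lower with title series as a block, with array weights and without knockout replicate 3. None of 6 Kirrel and nephrin partners was called in limma on the deposited values, and 1 had an unadjusted p under 0.05: Nck1, an adaptor that binds nephrin, with a change of 0.17 ± 0.06 (limma adjusted p = 0.129). Nck1 was called higher in the methods' t-test and in limma after quantile normalization or centring on the array median. The next smallest p was that of Cd2ap, a scaffold of the slit diaphragm, with a change of 0.14 ± 0.09 (limma adjusted p = 0.438).

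**Figure D4:**
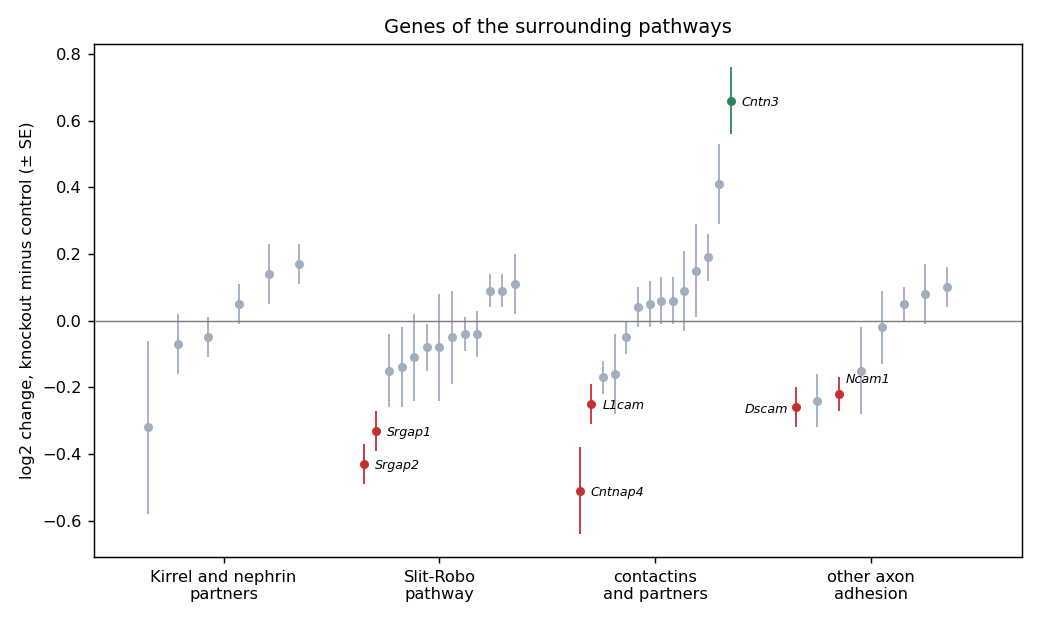
Log2 change, knockout minus control, with its SE (y axis) of 41 genes in 4 lists (x axis), ordered by change within a list; red points were called lower, the green point higher and grey points were not called. In limma on the deposited values, with no block or weights, Srgap1 and Srgap2 are the called genes of the Slit-Robo list, and Cntn3 is the gene called higher; centred on the mature OSN markers, the called decreases turn positive.

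Several members are neighbours in the genome, in the RefSeq order of protein-coding genes. Robo1 and Robo2 lie side by side on chromosome 16, and Robo2 fell while Robo1 did not pass. Chl1, Cntn6 and Cntn4 follow each other on chromosome 6, and none of these 3 was called. Kirrel2 on chromosome 7 lies next to Nphs1, which encodes nephrin, and in GRCm38.p6 their starts point away from each other, 2543 bases apart. Nphs1 had 2 clusters, with changes of 0.14 ± 0.09 and -0.32 ± 0.26 (limma adjusted p = 0.511 and 0.589), so neither passed beside the decrease of Kirrel2. Kirrel3 on chromosome 9 lies next to Ets1, with a change of -0.07 ± 0.08 (limma adjusted p = 0.698), and St3gal4, a sialyltransferase gene, which fell by 0.66 ± 0.11 (limma adjusted p = 0.00391).

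The genes most like each called member over the 8 arrays were named by Pearson r, as a description: the arrays share the group difference, so a high r mostly says that a gene separated the groups as cleanly. For Kirrel these were Sema3f, a secreted semaphorin (r = 0.994, change 0.67), Kcnc1, a potassium channel subunit (r = 0.992, change 0.79), and Atp2b2, a plasma membrane calcium pump (r = 0.989, change 1.28). For Kirrel2 they were Kcnmb3, a potassium channel beta subunit (r = 0.993, change -1.02), the odorant receptor Olfr1443 (r = 0.990, change -1.22) and Ncoa1, a nuclear receptor coactivator (r = 0.989, change -0.21). For Kirrel3 all were odorant receptors: Olfr130 (change -1.34), Olfr464 (change -1.25) and Olfr889 (change -0.94), each with r = 0.996. For Robo2 they were Olfr873 (r = 0.998, change -0.98), Ano2, a calcium-activated chloride channel of OSN cilia (r = 0.994, change -0.37), and Olfr1378 (r = 0.994, change -0.50). With the group means removed, r for these 12 genes was 0.70 to 0.96, but they were picked for a high r over the same arrays, so nothing is read from it.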

How the data were processed

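RNA of olfactory mucosa from 4 knockout and 4 control mice was measured on Affymetrix Mouse Gene 1.0 ST arrays. The deposited values are log2 expression values per transcript cluster, which the authors made with Affymetrix Expression Console; version, background correction and scaling: not given in the sources used here. They ran from 2.35 to 14.64 and no further scaling was applied. Arrays give no counts, so their number limits precision.

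Groups were taken from the phenotype labels. Replicate numbers only name a mouse. Names came from the platform annotation, updated by Entrez ID with a RefSeq table of GRCm38.p6: of 35557 clusters, 21789 had 1 symbol (21698 matched by Entrez ID) and 23410 had at least 1 and were tested. Of several clusters of a gene, that of highest mean was used.

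Knockouts were set against controls in limma 3.58.1 (lmFit, eBayes; R 4.3.3) with Benjamini-Hochberg adjustment over the 23410 clusters and a threshold of 0.05. Alternatives, given in the closing section, were other scalings, filters and blocks, each mouse left out in turn, and the methods' t-test, run here unpaired on these values, since the study names t tests for its arrays without their type. Pairs and levels relative to 15 mature OSN markers were tested by exact permutation. Named are the 9 members, Lhx2, Omp, up to 6 called genes of each pathway list (otherwise the 2 with the smallest p) and the 3 genes most like each called member. Other genes named (Srgap3, Cntnap1, Nrcam, App, Dscaml1, Slit3, Robo3, Robo4, Cntn1, Cntn2, Cntn5, Calr4, the zone markers, the genome neighbours) were added after values were seen. The members and lists were chosen with earlier results of these data known. Some listed genes are not reported here. The script was tested on simulated data. The study scaled its values to a much longer list of mature OSN mRNAs, which was not used here. It reports a small average reduction of that list in these knockouts, smaller than that of the 15 markers. The reported reduction is also smaller than the decreases of Kirrel2 and Robo2 in the deposited values. It is an average over many mRNAs, and whether these single genes fell beyond it was not tested. Levels relative to the 15 markers depend on that choice.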

Additional observations from a re-analysis of the deposited data

Results flagged for a closer look

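In 48 groups of 4 values, of the members, their pairs and their levels relative to mature OSN markers, 3 had 1 mouse far from the others by Dixon's criterion, which chance meets in about 1 of 20 groups. Kirrel2 in knockout replicate 1 was 11.17, against 11.44 to 11.49 in the other knockouts. Relative to the mature OSN markers it was -0.71 in the same mouse, against -0.39 to -0.36. Without that mouse the Kirrel2 decrease was -0.63 and still passed. Robo2 minus Robo1 in knockout replicate 3 was -0.16, against -0.36 to -0.33 in the other knockouts.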

How the results depend on the processing

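Kirrel (0.74 to 1.34), Kirrel3 (-1.60 to -0.97) and Cntn3 kept their call in all 17 alternatives, of which 8 left out a mouse. Kirrel2 and Robo2 kept theirs in 16, all but centring on the mature OSN list. With that centring Kirrel2 was at -0.14 (limma adjusted p = 0.186), 1 member was called lower (Kirrel3) and 7 higher, 0 pathway genes lower and 38 higher, and 815 clusters lower and 21738 higher. It also turned Robo1 (0.46), Robo2 (0.18), Slit1 (0.43), Cntn4 (0.31), Lhx2 (0.30), Srgap1 (0.22), Srgap2 (0.13), Cntnap4 (0.04), L1cam (0.30), Ncam1 (0.34) and Dscam (0.29), as its construction adds 0.56 to every change.

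Pathway genes called higher were 3 with quantile normalization, 4 with centring on the array median, 2 with title series as a block, 3 with array weights and 2 in the methods' t-test. Pathway genes called lower were 6 with quantile normalization, with title series as a block and in the methods' t-test. They were 4 with centring on the array median or over all clusters of the array, 7 with an intensity trend and 8 with array weights. Clusters called higher were 1028 with centring on the array median, 975 with title series as a block and 1086 with array weights. Cntn6 was at -0.05 with quantile normalization and -0.0029 with array weights. The cause was not tested.

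Leaving out 1 mouse gave 3 to 4 members called lower and 1 higher, 2 to 5 pathway genes lower and 1 to 2 higher, and 1302 to 1421 clusters lower and 304 to 563 higher. The pathway count was 3 without control replicate 1, control replicate 2 or knockout replicate 1, and 2 without knockout replicate 2. The clusters called higher were 304 without control replicate 1 and 318 without knockout replicate 4. Slit2 ran from -0.02 to 0.10 and Cntn6 from -0.06 to 0.11. Kirrel3 minus Kirrel2 ran from -0.94 to -0.71, Kirrel2 minus Kirrel from -1.58 to -1.40, Kirrel3 minus Kirrel from -2.38 to -2.26 and Robo2 minus Robo1 from -0.32 to -0.23. These 4 exact permutation tests, of 3 against 4 arrays, missed the threshold without any one control and without knockout replicate 2 or 4 (adjusted p = 0.0571 to 0.0857), as did Kirrel3 minus Kirrel2 without knockout replicate 3 (0.0686). Pairs at 0.0571 were at the smallest exact p, so for them the miss reflects the few possible assignments. Slit1 minus Slit2 ran from -0.26, which passed without knockout replicate 3, to -0.07, and Cntn4 minus Cntn6 from -0.37 to -0.15. Cntn6 relative to the markers ran from 0.49 to 0.68 and missed the threshold without any one control (exact permutation adjusted p = 0.0643), and nothing is read from differences that involve Cntn6, given its low signal.

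Against the median of the mature OSN list, Robo2 was at 0.23 and Cntn6 at 0.62, and without Cnga4 Kirrel2 was at -0.25 and Robo2 at 0.08. Within title series 7, Kirrel3 minus Kirrel2 was -0.53 and Slit1 minus Slit2 0.14, and within title series 9 Cntn4 minus Cntn6 was -0.65. Relative to the markers, Kirrel was at 1.23 in title series 5 and 1.52 in title series 7. In title series 7 Kirrel3 was at -0.71, Robo1 at 0.55, Robo2 at 0.27 and Slit2 at 0.32, and in title series 9 Kirrel2 was at 0.06 and Cntn6 at 0.92.

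Low signal limits Cntn6. Each member had 1 cluster, so other clusters of a gene could not be tried, and Cntn6 was not among the clusters left without dim ones. Mice could not be paired one to one, since replicate numbers only name them here. The block by title series was the nearest matched fit; it called the same 4 members and Cntn4. The study states that each litter that gave knockouts also gave controls. Which litter a mouse came from is not known here, so litter differences stay in the spread of the tests without a block. The p-values measure the spread between these mice.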
